A study of Mus musculus with 2 samples.

Results

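The 10 genes described here are the transcription factor NRF2 (Nfe2l2), its inhibitor KEAP1 (Keap1) and 8 classic targets of NRF2, namely Nqo1, Hmox1, Gclc, Gclm, Txnrd1, Srxn1, Sqstm1 and Prdx1. They were chosen by name, and every probe set annotated to exactly 1 of these symbols was taken. This gave 19 probe sets of 9 genes, out of 45037 probe sets and 18193 genes on the array. Prdx1 has no such probe set, because all 5 that carry its name also carry that of Gm21399. The RNA came from mouse primary T cells, all of them stimulated with antibodies against CD3 and CD28, which engage the T cell receptor and its costimulatory receptor. In the stimulated group the cells received the antibodies only, and in the triptolide group they also received triptolide at 50 ng/ml. Triptolide is a plant diterpenoid that inhibits transcription by binding the XPB subunit of the transcription factor TFIIH. The labels describe purified cells and 18 h of culture. They do not give the organ, strain, age or sex of the mice or the length of the exposure to triptolide, and they name no vehicle control. Each group was measured on 1 Affymetrix array, so there is no spread between replicates, no test and no p-value, and the differences below are those between 2 RNA samples.

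NRF2 is the main activator of antioxidant genes. In unstressed cells KEAP1 binds it and passes it to a ubiquitin ligase built on CUL3, so that it is degraded. Oxidants and electrophiles modify cysteines of KEAP1, NRF2 then accumulates, pairs with a small MAF protein and binds antioxidant response elements in its target genes. The repressor BACH1 competes for the same elements. In activated T cells, glutathione and thioredoxin, whose enzymes NRF2 helps to induce, buffer the oxidants made during growth and are needed for proliferation.

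The core of the antioxidant response element was searched in the promoter windows of these genes as the letters TGACNNNGC on both strands, in windows of 300 bases from 250 before to 50 after a transcription start (RefSeq, build GRCm38.p6). The table held windows for 8 of the 10 genes, Hmox1 and Gclc being the others. A match was present in 5 of the 8 genes and in 13.99% of all 27025 genes with a window. Counted by window, it was present in 5 of 10 and in 12.39% of all 32851. Because most of these genes were chosen as known targets of NRF2, the difference between the shares is not a result of these data. Keap1, Nqo1 and Sqstm1 had none in these windows. The matches are shown because NRF2 is known to act through this element, with the core in capitals and 10 bases on either side, on the strand on which it reads in this direction. A match of letters is a description and no measured binding site.
Nfe2l2: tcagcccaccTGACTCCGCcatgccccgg
Gclm: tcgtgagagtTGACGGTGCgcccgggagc
Txnrd1: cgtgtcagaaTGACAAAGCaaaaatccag
Srxn1: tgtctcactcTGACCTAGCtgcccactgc
Prdx1: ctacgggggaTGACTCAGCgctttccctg
The Nfe2l2 stretch lies at chr2:75704885-75704913 on the minus strand, the strand of the gene, with the core centred 236 bases before the start. The other stretches lie on the minus strand, opposite to their genes. That of Gclm is at chr3:122245413-122245441, 130 bases before the start, and that of Prdx1 at chr4:116685456-116685484, 129 bases before it. Txnrd1 has 3 windows, and the match is in 1 of them, at chr10:82859104-82859132, 88 bases before that start. The Srxn1 match is at chr2:152105542-152105570 and is centred 32 bases after the start. None of the 5 cores is the same as another in its 3 free bases, and the genes that carry one did not go the same way with triptolide, as the signals below show.

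The values are MAS5 signals, which are brightness values on a linear scale. A background floor of 118 was set from 85 probe sets of chemosensory receptor genes, which T cells are not expected to express, and signals under it were raised to it before ratios were taken. For each gene the probe set of highest average brightness (log2 scale) stands for the gene, which counts as detected where that probe set exceeds the floor on at least 1 array. The ratio is triptolide over stimulated, and at least 2-fold was counted as higher or lower. By that rule 5.6% of the 10883 detected genes were higher with triptolide and 12.3% were lower, and the median log2 ratio was -0.16. At 1.5-fold the shares were 13.3% and 26.9%, and 1 of the NRF2 pathway genes below was higher (Nfe2l2) and 1 lower (Gclm). As a guide to technical spread, the log2 ratios of 2 probe sets of the same gene differed with an SD of 0.49 per probe set over 3733 genes. This SD holds no variation between cultures or mice. The cells carried T cell transcripts on both arrays, with all 11 measured T cell markers detected, Thy1 being the brightest (14194 without and 10065 with triptolide). Of these markers 9 had a ratio below 0 and 4 (Cd2, Cd4, Cd8a and Lat) were at least 2-fold lower with triptolide, with a median log2 ratio of -0.50. The lowest was Cd8a (7327 and 2417, 3.03-fold lower) and the highest Cd3e (2881 and 3962, log2 ratio 0.46). In such bulk RNA fewer cells of a type and less RNA per cell cannot be told apart, and a loss of RNA common to all genes is not visible in scaled signals.

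Most of the NRF2 pathway genes that could be measured differed by less than 2-fold. Of the 9 genes with a probe set of their own, 7 were detected, none was at least 2-fold higher and 1, Gclm, was at least 2-fold lower. Their median log2 ratio was 0.03, against -0.16 over all detected genes. Nqo1 and Hmox1 were under the floor on both arrays. With 7 genes, 1 lower gene is 14.3% of the members, near the 12.3% of all detected genes. Of the 19 probe sets, 12 were above the floor on both arrays, 6 on neither and 1 on the triptolide array only.

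**Figure D1:**
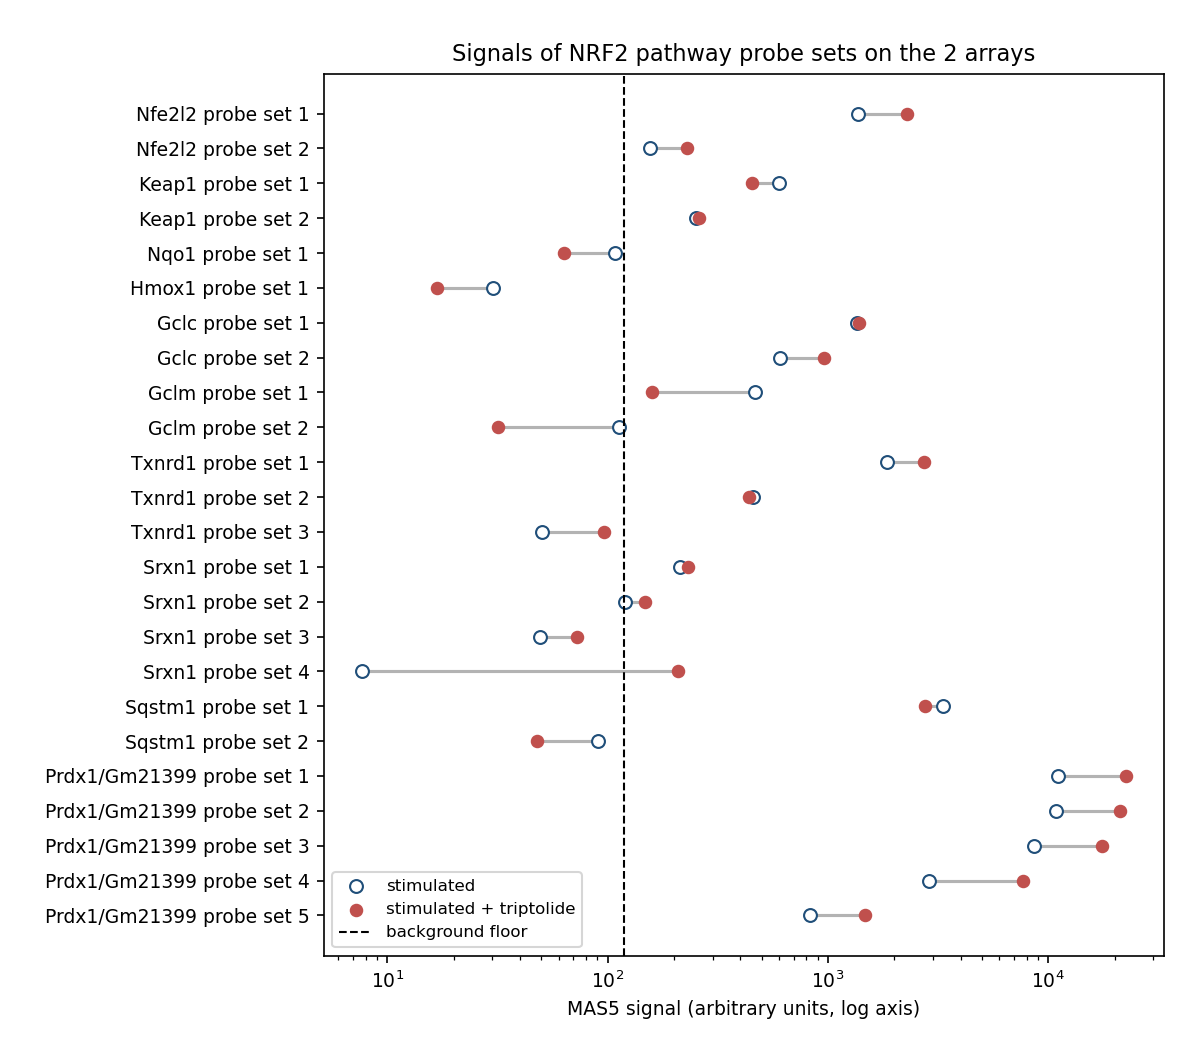
MAS5 signal (log axis, arbitrary units) of each probe set of the 10 genes in the stimulated (open circles) and the triptolide sample (filled circles), with a grey line joining the 2 values of a probe set and the background floor of 118 as a dashed line. With triptolide the brighter Gclm probe set moved from 469 to 159, towards the floor, while both Nfe2l2 probe sets and all 5 probe sets shared by Prdx1 and Gm21399 lie further to the right.

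Nfe2l2, the gene of NRF2 itself, was higher with triptolide on both of its probe sets, but by less than 2-fold. The brighter one had a signal of 1373 in the stimulated and 2291 in the triptolide sample. The dimmer one had 156 and 229. These are 1.67-fold and 1.47-fold, or log2 ratios of 0.74 and 0.55, so the pair differed from each other by less than the SD between probe sets. Of all detected genes, 90.5% had a lower ratio than the brighter Nfe2l2 probe set.

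Keap1, whose product holds NRF2 down, differed little. Its brighter probe set had 597 without and 455 with triptolide, a log2 ratio of -0.39. The dimmer one had 252 and 261, a log2 ratio of 0.06, so the probe sets gave opposite signs and both values lay within the SD between probe sets of 0. Sqstm1 encodes p62, an autophagy receptor that binds KEAP1 and takes it to degradation, and is itself a target of NRF2. Its bright probe set had 3328 and 2772, a log2 ratio of -0.26, and its other probe set was under the floor on both arrays (90.4 and 47.7).

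The glutathione genes in the set gave different answers for the 2 subunits of one enzyme. Glutamate-cysteine ligase makes the first and rate-limiting step of glutathione synthesis, with Gclc encoding the catalytic and Gclm the modifier subunit. Gclm was the only member past 2-fold. Its brighter probe set had a signal of 469 on the stimulated and 159 on the triptolide array, which is 2.95-fold lower (log2 ratio -1.56). Its other probe set, with 113 and 31.7, was under the floor on both arrays and gives no ratio. Of all detected genes, 3.68% had a lower ratio than Gclm. Gclc had 1361 and 1388 on its brighter probe set, a log2 ratio of 0.03. Its other probe set, with an ID that marks it as shared between transcripts, had 609 and 960, a log2 ratio of 0.66. Thus Gclc showed no lower signal on either probe set, while the brighter Gclm probe set was lower by more than 3 times the SD between probe sets. That SD holds no variation between cultures or mice, so the multiple is not a test. With the floor raised to 237 the Gclm ratio is a bound of -0.98, just short of 2-fold.

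Among the thioredoxin genes, Txnrd1 encodes the cytosolic thioredoxin reductase, a selenoprotein that keeps thioredoxin reduced. Its brightest probe set had 1859 without and 2738 with triptolide, a log2 ratio of 0.56. A dimmer one had 457 and 437, a log2 ratio of -0.06, and the last was under the floor on both arrays (50.6 and 96.7). The brightest probe set was thus higher by just over the SD between probe sets, and the next was nearly level. All 3 carry IDs that mark sharing between transcripts.

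Srxn1 encodes sulfiredoxin, which reactivates over-oxidised peroxiredoxins. Its signals were close to the floor. The brightest probe set had 213 and 233 (log2 ratio 0.13), and the next 120 and 148 (log2 ratio 0.31). On a further probe set the signal was 7.70 without and 208 with triptolide, at least 1.75-fold higher, and on the last it was under the floor on both arrays (49.5 and 72.4). All 4 were brighter on the triptolide array, but those above the floor on both arrays by less than the SD between probe sets.

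Prdx1 encodes an abundant cytosolic peroxiredoxin, which reduces hydrogen peroxide with electrons from thioredoxin. The 5 probe sets that carry its name and that of Gm21399 were all higher with triptolide. The brightest had 11040 without and 22509 with triptolide (2.04-fold), the next 10799 and 21205 (1.96-fold) and the third 8665 and 17459 (2.01-fold). The dimmer ones had 2889 and 7709 (2.67-fold), and 828 and 1467 (1.77-fold). These signals cannot be assigned to Prdx1 alone, so they enter no count above. If they are assigned to it, a choice made after their values were seen, Prdx1 is the only member at least 2-fold higher, and 8 members are detected.

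Nqo1 encodes a quinone reductase and Hmox1 the inducible haem oxygenase, both widely used as readouts of NRF2 activity. The single probe set of Nqo1 had 109 on the stimulated and 63.7 on the triptolide array. That of Hmox1 had 30.3 and 16.8. Both genes were thus under the common floor on both arrays, and no ratio is given. The Nqo1 signal without triptolide lay close to the floor, and at the level of the stimulated array's own background percentile (108). With a floor of 59.2 Nqo1 counts as detected, at less than 2-fold.

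**Figure D2:**
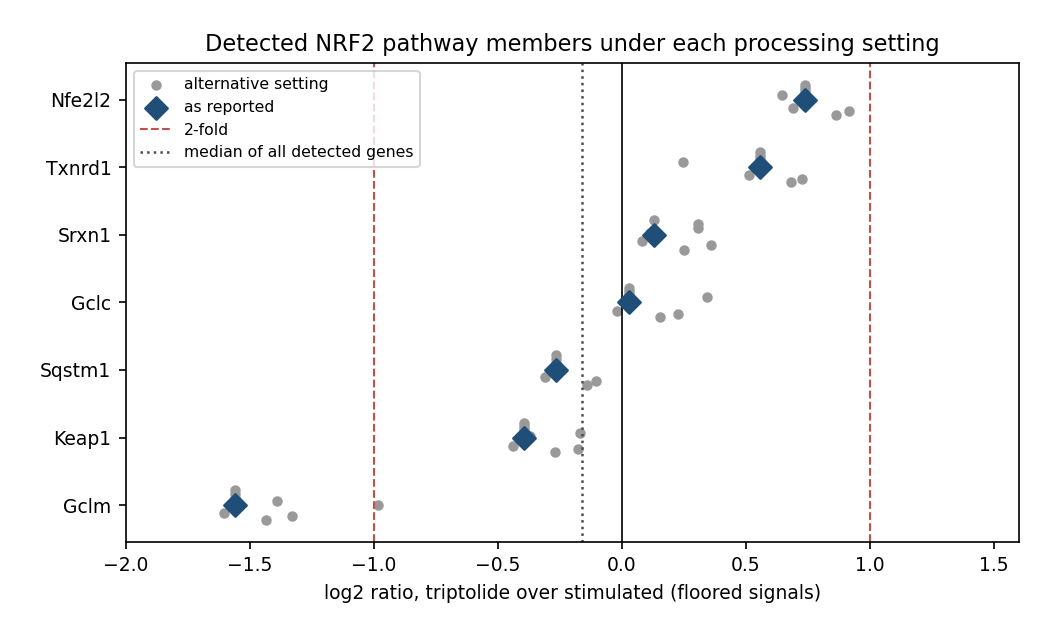
Log2 ratio of triptolide over stimulated for the 7 detected NRF2 pathway genes, as reported (diamonds) and under each alternative way of scaling, flooring or choosing probe sets (grey points). Gclm lies between -1.61 and -0.98 and Nfe2l2 between 0.64 and 0.92 under the alternatives that give them a value (9 for Gclm, 10 for Nfe2l2), while the points of Gclc fall on both sides of 0. The dashed lines mark 2-fold and the dotted line the median of all detected genes.

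The wider antioxidant system was followed through 112 further genes in 8 lists set by role. Of these, 105 had a probe set of 1 symbol and 84 were detected. Past 2-fold, 3 were higher (3.57%) and 11 lower (13.1%), against 5.6% and 12.3% of all detected genes. Their median log2 ratio was -0.16, equal to that of all detected genes at 2 decimals. The 3 higher genes were Txn2, Txnip and Map1lc3b, and the lower ones are named with their lists. Of the 14 past 2-fold, Bach1, Idh2, Map1lc3b, Taldo1, Txn2, Txnrd2 and Ugdh stayed past it under every alternative that gave them a value, while Abcc1, Ccs, Chac1, Ephx1, Gstm1, Trib3 and Txnip fell short of it under 1 to 3 of them.

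Partners, repressors and degradation factors of NRF2 had 15 detected members with a median of -0.05. Of these, 6.67% were at least 2-fold lower, against 12.3% of all detected genes. Bach1, whose protein represses NRF2 targets such as Hmox1, was the only one past 2-fold by the probe set standing for the gene. That probe set had 625 without and 244 with triptolide (2.56-fold lower). The dimmer Bach1 probe set had 188 and 109, the latter under the floor, and was at least 1.58-fold lower. A dimmer probe set of Gsk3b (347 and 162) and one of Bach2 (277 and 138) were also past 2-fold lower. The brightest probe sets of these genes had log2 ratios of -0.08 and -0.02. Mafk, a small MAF partner of NRF2, had the highest ratio of the list (309 and 512, log2 ratio 0.73). For Cul3, the scaffold of the ligase that KEAP1 serves, the brightest probe set was higher (2392 and 3305) and the 4 dimmer ones were lower, so no direction is given. Rbx1, the RING subunit of that ligase, had 147 and 142 on its only probe set of 1 symbol. The brightest of its probe sets that also carry the name Rbx1-ps had 8091 and 3710 (2.18-fold lower) and the next 4858 and 2719 (1.79-fold lower). Of the dimmer ones, 1 had 160 and 465 (2.90-fold higher), another 238.5 and 214.4, and the last was under the floor on both arrays. These shared probe sets disagreed and cannot be assigned to Rbx1 alone, so no direction is given.

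Glutathione synthesis and use had 19 detected members with a median of -0.29, 3 of them at least 2-fold lower and none higher. The 3 are 15.8% of the list, near the 12.3% of all detected genes that were lower. Of all detected genes 5.6% were higher. Abcc1, an exporter of glutathione conjugates, had 1870 and 816 (2.29-fold lower) on its brighter probe set. On the other it had 681 and 413 (1.65-fold lower). Chac1, which degrades glutathione and is best known as a target of the stress factor ATF4, had 249 and 79.0 (at least 2.10-fold lower). Gstm1, a glutathione transferase with close relatives that its probes may not tell apart, had 252 and 94.1 (at least 2.13-fold lower). Gclm, a gene of glutathione synthesis that was also lower, is counted above and not in this list. Gss, which completes glutathione, had 202 on both arrays on one probe set and 219 and 151 (log2 ratio -0.53) on the other. The highest ratio was that of Mgst3, a microsomal glutathione transferase (136 and 226, log2 ratio 0.73). Slc7a11, the cystine importer induced by NRF2, was under the floor on both arrays (3.20 and 67.9).

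The thioredoxin and peroxiredoxin list had 14 detected members, a median of 0.12, 2 higher and 1 lower. These are 14.3% and 7.14% of a short list, against 5.6% and 12.3% of all detected genes. Txn2, the mitochondrial thioredoxin, had 1299 without and 4076 with triptolide (3.14-fold higher), and its other probe sets had 1438 and 3348, and 1314 and 3350. Txnrd2, the mitochondrial reductase that serves it, went the other way with 563 and 192 (2.93-fold lower), and its 3 other probe sets were lower too (log2 ratios -1.18 to -0.75). The cytosolic partner of Txnrd1, Txn1, had 17271 and 20793 (log2 ratio 0.27). By the probe sets standing for the genes, mitochondrial thioredoxin and its reductase thus differed in opposite directions by more than 2-fold, while the cytosolic pair stayed within it. Dimmer Txnrd2 probe sets with log2 ratios of -0.75 and -0.86 were lower by less than 2-fold. Txnip, an inhibitor of thioredoxin and of glucose uptake, had 1486 and 3343 (2.25-fold higher). On its other probe set it had 866 and 953, a log2 ratio of 0.14. Prdx2 counted as within 2-fold by its brighter probe set (3040 and 3860, log2 ratio 0.34). The dimmer Prdx2 probe set had 233 and 919 (3.94-fold higher), and the median over the probe sets was 1.16.

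Of the genes for removal of superoxide and hydrogen peroxide, 5 were detected, with a median of -0.52, and the probe sets standing for them all had ratios below 0. The median is the value of Sod2, whose brightest probe set had 2916 and 2040. Its next probe set had 2526 and 2238 (log2 ratio -0.17), and a dimmer one had a log2 ratio of -0.33. On another Sod2 probe set only the triptolide signal exceeded the floor (60.6 and 129). For Cat the log2 ratio was -0.69 on the brighter probe set and -0.20 on the other. Ccs, the copper chaperone of superoxide dismutase, was the lowest with 739 and 363 (2.04-fold lower). By the probe sets standing for the genes no other was past 2-fold. Thus 20% of this short list were lower, against 12.3% of all detected genes. For Sod1, the cytosolic superoxide dismutase that Ccs serves, the probe sets disagreed, so no direction is given. The brightest, shared between transcripts, had 5697 and 5037 (log2 ratio -0.18), the highest ratio of the list. The next had 4765 and 5796 (log2 ratio 0.28). Of the dimmer ones, 1 had 186 and 342 (log2 ratio 0.88) and another 372 and 116 (at least 3.14-fold lower). The ratio of Sod1 was above 0 in both alternatives that chose its probe sets otherwise. Over all detected genes, 60.2% had a ratio below 0.

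For NADPH supply, 2 of 8 detected genes were lower by at least 2-fold and none higher, with a median of -0.30. The 2 are 25% of a short list, against 12.3% of all detected genes lower and 5.6% higher. Idh2, the mitochondrial NADP-dependent isocitrate dehydrogenase, had 1062 without and 165 with triptolide (6.46-fold lower), with both signals above the floor. Its other probe set was under the floor on both arrays. Taldo1, transaldolase of the pentose phosphate pathway, had 2557 and 1060 (2.41-fold lower). Pgd, the NADPH-producing 6-phosphogluconate dehydrogenase of that pathway, was the highest with 3001 and 5624 (1.87-fold). Its 3 other probe sets were higher too (log2 ratios 0.62 to 1.40). Tkt, also of that pathway, had 16716.3 and 21647.5 (log2 ratio 0.37) on its brightest probe set and a log2 ratio of 0.22 on the next. The last Tkt probe set was under the floor on both arrays. Taldo1 was thus lower, while Pgd and Tkt were higher, but by less than 2-fold on their brightest probe sets. G6pdx, also of this list, was not analysed.

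Haem and iron genes had 6 detected members within 2-fold and a median of -0.14. The lowest was Abcb6, a porphyrin transporter (422 and 213, log2 ratio -0.98), and the highest Tfrc, the transferrin receptor (7095 and 10613, log2 ratio 0.58). The dimmer Tfrc probe sets were nearer level, with log2 ratios of 0.16 and 0.10. Fth1, the heavy chain of ferritin, had 11980 and 14466 (log2 ratio 0.27).

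Among detoxifying enzymes and transporters, 7 of 16 measured genes were detected, with a median of -0.16, and 3 were at least 2-fold lower. The 3 are 42.9% of the few detected, against 12.3% of all detected genes. Ugdh, which makes the substrate for glucuronidation, had 1483 and 380 (3.91-fold lower). Ephx1, the microsomal epoxide hydrolase, had 1082 and 490 (2.21-fold lower). Trib3, a pseudokinase gene better known as an ATF4 target, had 381 and 56.7 (at least 3.22-fold lower). The highest ratio was that of Abcc4, an exporter (264 and 428, log2 ratio 0.70). The other 9, among them Nqo2, Cbr3, Aox1 and Aldh3a1, were under the floor on both arrays, as Nqo1 was.

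Autophagy partners of p62 had the highest list median, 0.33, over 10 detected genes, with 1 at least 2-fold higher and none lower. The 1 is 10% of a short list, against 5.6% of all detected genes higher and 12.3% lower. Map1lc3b, the LC3B protein that p62 binds on autophagosomes, had 3202 and 6691 on its brightest probe set (2.09-fold higher). The other 2 probe sets above the floor had log2 ratios of 1.46 and 1.40. Nbr1, a receptor related to p62, had 1225 and 1981 (log2 ratio 0.69), and Map1lc3a was the lowest (395 and 248, log2 ratio -0.67). Sqstm1 itself, given above, had a log2 ratio of -0.26.

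**Figure D3:**
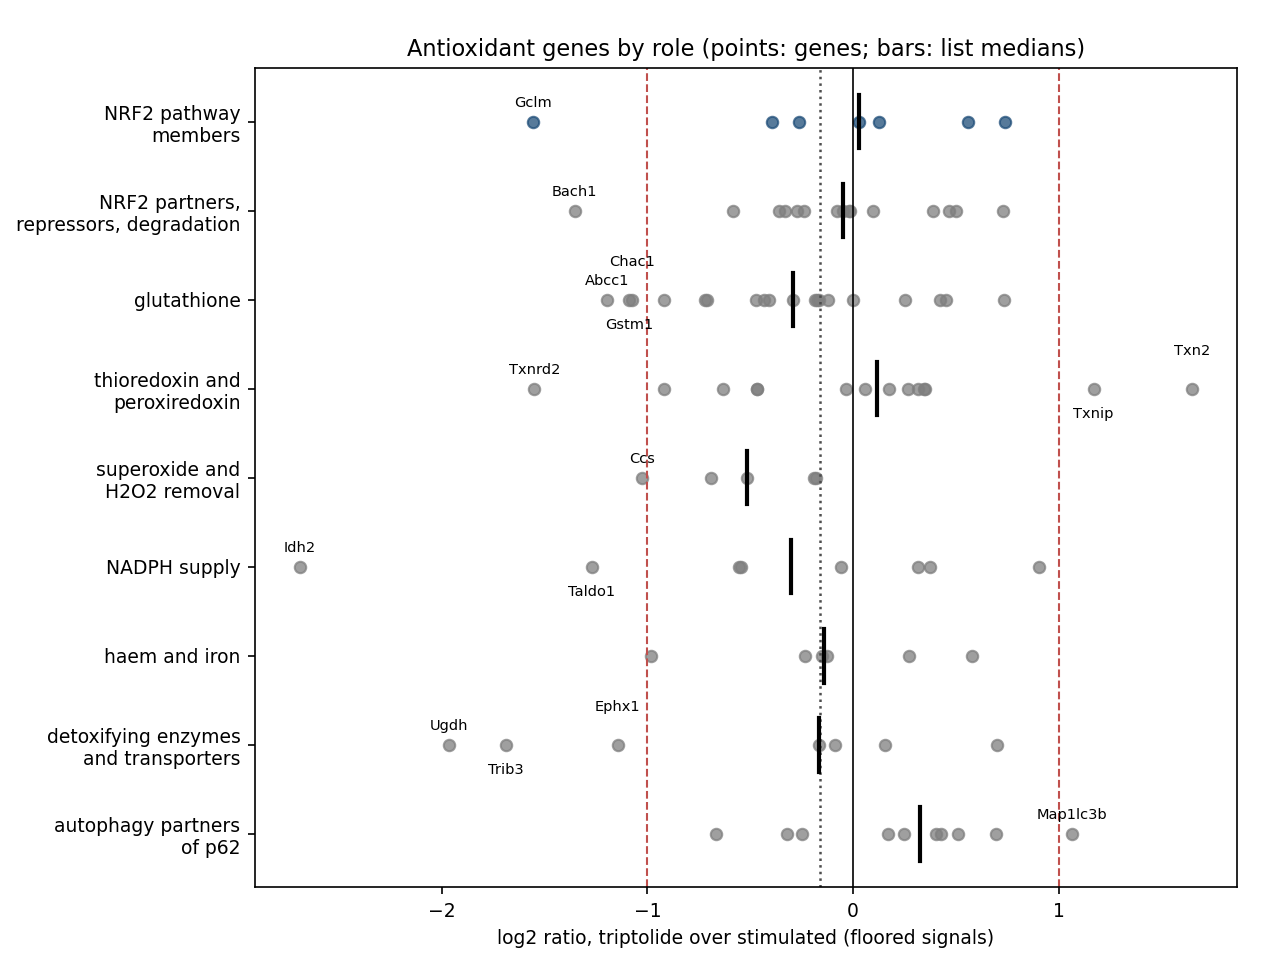
Log2 ratio of triptolide over stimulated for each detected gene, with the 7 NRF2 pathway genes in the top row and the 8 role lists below it. Points are genes, black bars the list medians, dashed lines 2-fold and the dotted line the median of all detected genes (-0.16). The list medians lie between -0.52 and 0.33, and genes past 2-fold are named.

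Transcripts of other cells in the preparation were compared, because Hmox1, Slc40a1 and other iron and haem genes are strongly used by macrophages. Of 15 macrophage and monocyte markers 7 were detected, and the summed signal of all 15 was 1737 without and 1489 with triptolide. Csf1r had 272 and 288, Lyz2 72.2 and 260 (at least 2.19-fold higher) and Mpeg1 342 and 117 (at least 2.88-fold lower), while Cd14, Itgam, C1qa and Cd163 were under the floor on both arrays. Of the B cell markers 7 of 9 were detected, with a summed signal of 1881 and 1678, Cd79a the brightest and highest (349 and 674) and Cd22 the lowest (369 and 179). Neutrophil markers summed to 731 and 703, with 5 of 7 detected, Mpo the highest (77.4 and 240) and S100a8 the lowest (178 and 42.2). None of these 5 was above the floor on both arrays. All these sums include signals under the floor and so hold background, and they do not measure the share of such cells. Of the erythroid and of the dendritic cell markers 1 each was above the floor, Epor (136 and 43.3) and Zbtb46 (208 and 109). The part of these cells in the differences above was not tested.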

How the data were processed

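Total RNA of the 2 samples, 1 per group, was hybridised as biotin-labelled target, and groups follow the source names. The deposited values are linear intensities, 1 for each probe set of an array, and the submitters' processing notes name MAS5 as the tool. Its version and scaling are not stated there. The mean intensity of the first 100 listed probe sets, after trimming 2% at each end, was 2000.0 on both arrays, so the scaling appears to rest on them. Median signals were 95.5 and 87.6, and 44.8% and 42.2% of probe sets exceeded the floor. Of 45037 probe sets, 34945 carried 1 symbol, 932 several and 9160 none. Symbols came from the platform annotation, and 34741 of them were looked up by Entrez number in a RefSeq gene table (GRCm38.p6, names only). The floor was the higher of the arrays' 95th percentiles (108 and 118) over chemosensory receptor probe sets.

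With 1 array per group no test was run. The calculation (Python 3.11.15, numpy 2.4.6, pandas 2.3.3) was tested on simulated data. The members and lists were chosen with earlier results of these data known. Named were all members, the genes of each role list at least 2-fold apart with its highest and lowest, and of each marker list the brightest, highest and lowest. Other genes were picked after their values were seen. Of the role lists, Ftl1 and Esd had only probe sets of several symbols, and Ggt1, Prdx5, Prdx6, G6pdx and Optn were not analysed here. The number of arrays limits the precision.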

Additional observations from a re-analysis of the deposited data

How the results depend on the processing

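Of the 7 detected members, 6 kept the sign of their ratio under every alternative that gave them a value, and Gclc went from 0.03 to -0.02 when the arrays were scaled on housekeeping genes. The members' median log2 ratio lay between -0.12 (a floor of 59.2, at which Nqo1 is an 8th detected member, or of 237) and 0.25 (median over a gene's probe sets). The count of members at least 2-fold lower fell from 1 to 0 with a floor of 237, where Gclm is a bound, and when only genes reaching 4 times the floor on an array were kept, where Gclm is not counted. The count of members at least 2-fold higher went from 0 to 1 with probe sets of several symbols (Prdx1), an alternative added after the data were seen. With them the wider pathway had 12 genes at least 2-fold lower in place of 11. The addition was Rbx1, by the brightest of its probe sets, which disagreed. At 1.5-fold in place of 2-fold the count of higher members was also 1 (Nfe2l2), against 13.3% of all detected genes higher and 26.9% lower. In the wider pathway, 8 genes were higher and 19 lower at 1.5-fold. After quantile normalization 4 were higher and 7 lower, against 3 and 11 as deposited. Over all detected genes that normalization gave 8.1% higher and 8.37% lower, centring on the medians 7.07% and 9.8%, and the median ratio of all genes moved from -0.16 to 0.01 and -0.05. No ratio past 2-fold changed its sign. Of the wider pathway, 66 of 84 genes kept their sign under all alternatives that gave them a value. No paired analysis was possible because each group has 1 array. Probe sets near the floor, such as those of Srxn1, limit what can be read.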
